A study of Mus musculus with 12 samples.

Results

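The THC by LPS interaction is the difference between a pair of differences. For each gene, the change that lipopolysaccharide (LPS) made in mice given delta-9-tetrahydrocannabinol (THC) in adolescence was set against the change it made in mice given only the vehicle: THC_LPS minus THC_Ctrl, less Veh_LPS minus Veh_Ctrl, on the log2 scale. A value below 0 means that the LPS difference was smaller, or more negative, after THC, and a value above 0 that it was larger. All 12 libraries of the series enter it, and 17208 of the 25556 genes in the joined counts had enough reads to be tested. Expression was measured by RNA sequencing of brain tissue, with no region named in the labels, from male C57BL6 mice. THC_LPS mice received THC at 5 mg/kg by intraperitoneal injection once a day from postnatal day 30 to 44 and LPS at 0.33 mg/kg at day 70. THC_Ctrl mice received the same THC and then saline. Veh_LPS mice received the vehicle of THC, 8% Tween-80 in saline, and then the same LPS, and Veh_Ctrl mice the vehicle and then saline. Brains were taken 24 h after the adult injection, and each group has 3 libraries. The series' title names adolescent low-dose THC, the microglial state and the later response to microbes as its subject, and the interaction asks whether the brain's response to LPS differs after THC.

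LPS is a cell wall component of Gram-negative bacteria that is sensed by Toll-like receptor 4, mainly on myeloid and endothelial cells. Sensing sets off NF-kB target genes and type I interferon, and interferon in turn raises antiviral genes, complement and the antigen presentation machinery in microglia, astrocytes and vessels. THC acts on the cannabinoid receptors, Cnr1, abundant on neurons, and Cnr2, found mainly on immune cells. Immediate-early genes such as Fos and Egr1 are switched on within minutes of neuronal firing, growth factor signalling or handling, and glucocorticoid-responsive genes follow the adrenal stress hormone.

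Reads counted to genes ran between 16.7 and 22.4 M in the THC_LPS libraries and between 24.7 and 25.6 M in THC_Ctrl, against 25.5 to 44.7 M for Veh_LPS and 24.3 to 26.4 M for Veh_Ctrl. Whether each library is a different mouse is not said in the labels. The p-values therefore speak of variation among these libraries, part of which may be technical. THC_LPS replicate 3 stood apart: its gene levels, relative to the other libraries, fell with the genes' GC content (Spearman rho -0.735 across genes, against -0.119 to 0.284 in the other 11), and 9.11% of its reads came from mitochondrial genes, against 4.11 to 7.11% elsewhere. Veh_LPS replicate 2 carried pituitary hormone transcripts, at a summed 4144 CPM (scaled counts per M reads) against 3.3 to 17.4 CPM in the other libraries. Hindbrain and spinal cord Hox genes also differed between libraries of 1 group. Cortical glutamatergic neuron genes, which check the tissue label, summed to 4100 to 6886 CPM. Values without THC_LPS replicate 3, or without it and Veh_LPS replicate 2, are given beside the main gene groups and for the genes described in most detail.

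In the edgeR quasi-likelihood fit, with p-values adjusted over all genes by Benjamini-Hochberg, 0 of the 17208 genes had an interaction at an adjusted p under 0.05 (0% called). The smallest adjusted p was 0.71, and it holds for every gene named here with an unadjusted p under 0.05. At an unadjusted p under 0.05 there were 1167 genes (6.78%, where 5% of the genes would be 860), 467 of them with a negative value (2.71%) and 700 with a positive one (4.07%). DESeq2 called 1 gene, Cyr61 (0.00581%), and limma-voom with sample weights called 0, with 1904 genes at an unadjusted p under 0.05. Over all tested genes the interaction was balanced, with 8613 values below 0 and 8595 above, a median of 0.00 and a middle 90% from -0.74 to 0.68. The gene functions described next are therefore leanings in direction and size, and no single member passed the edgeR test. Of 66 gene lists, 40 had a median below 0 and 26 above; 36 kept the sign of their median in each of 23 alternative analyses, 25 of them below 0 and 11 above. The LPS effect itself was called in 19 genes after THC (0.11%) and 107 after vehicle (0.622%) by edgeR, but in 486 and 216 by DESeq2, so the number of calls in each arm does not say which arm responded more.

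**Figure D1:**
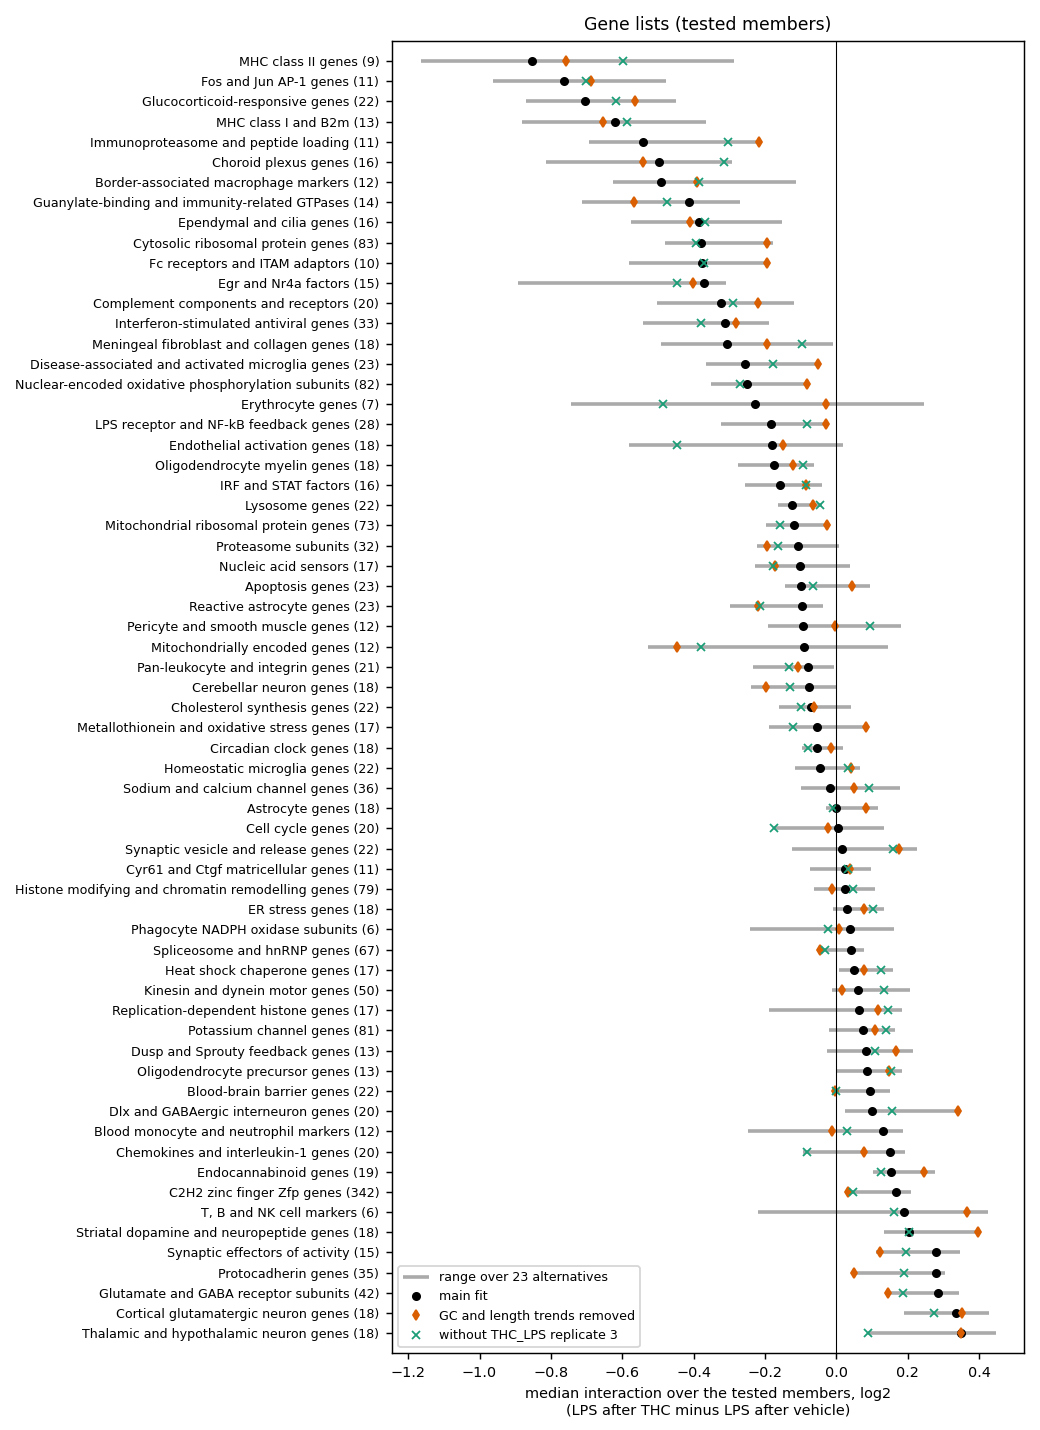
Median interaction (log2, x axis) over the tested members of 64 gene lists, with the number of tested members in parentheses, in the main fit, with GC and length trends removed, and without THC_LPS replicate 3; grey bars span the 23 alternatives. Antigen presentation, AP-1 and glucocorticoid-responsive genes lie farthest below 0 and cortical and thalamic neuron genes farthest above; the Hox and pituitary lists, whose members are near 0 reads in some groups, are not drawn.

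Antigen presentation leaned to a smaller LPS change after THC. MHC class I molecules carry peptides from inside the cell to its surface, the immunoproteasome cuts these peptides, and the Tap transporter with Tapbp loads them. Of 13 tested class I genes, 12 had a negative interaction, 6 of them at an unadjusted p under 0.05, with a median of -0.62 against 0.00 for all tested genes. Their median LPS effect was 0.24 after THC and 0.79 after vehicle. After THC 0 of the 13 were called higher by edgeR (0.0988% of all tested genes), and after vehicle 6 were (0.622%). As said of all genes, these counts do not rank the arms. In 8 of the 13, each THC_LPS library was below each Veh_LPS library in CPM, which was so for 6.12% of all tested genes. Without THC_LPS replicate 3 the median was -0.59, and without it and Veh_LPS replicate 2 it was -0.37.

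The promoters of these class I genes share a short stretch, shown because it links the members whose values follow. A match to the NF-kB consensus, called the kappaB site, lies in the 250 bases before the start site or the 50 after it in 8 of the 10 class I members that have a RefSeq promoter (build GRCm38.p6, the same assembly as mm10), against 6.43% of the 12092 tested genes with one. The search covered both strands, and the capitals mark the match, read along the gene's own strand.
H2-K1: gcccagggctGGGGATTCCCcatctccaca
H2-D1: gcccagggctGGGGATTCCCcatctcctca
H2-Q4: gatcaggggtGGGGATTTCCcatctcccca
H2-Q6: gcccatggctGGGGATTCCCcatctcccca
The stretches lie at chr17:34000439-34000468 on the minus strand for H2-K1, and on the plus strand at chr17:35262913-35262942 for H2-D1, chr17:35379433-35379462 for H2-Q4 and chr17:35424667-35424696 for H2-Q6. Over all 778 tested genes with such a match the median interaction was -0.04, against -0.00 for all 12092 with a promoter. With GC and length trends removed these medians were 0.011 and 0.009, and without THC_LPS replicate 3 they were -0.003 and -0.004. Median gene GC content was 52.6% for the 778 and 50.9% for the 12092. Of the 778, 40 had a negative value at an unadjusted p under 0.05 and 28 a positive one. Among the 12092 these counts were 335 and 495. Whether the match bears on the interaction was not tested. A match describes letters and not binding.

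H2-K1, a classical class I heavy chain, had 73, 46.3 and 34.8 CPM in the 3 THC_LPS libraries and 33, 34.8 and 42.6 CPM in THC_Ctrl, against 77.1, 98.6 and 92 CPM in Veh_LPS and 28.3, 35.2 and 38.5 CPM in Veh_Ctrl. Each Veh_LPS library was above each library of the other groups, while THC_LPS overlapped THC_Ctrl in 1 library. Its LPS effect was 0.48 on the log2 scale after THC (adjusted p = 0.237) and 1.39 after vehicle (adjusted p = 0.0045), and the interaction was -0.91 ± 0.30 (SE; unadjusted p = 0.00776, adjusted p = 0.71).

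H2-D1, the other classical heavy chain of this strain, had 96, 73.1 and 51.1 CPM in THC_LPS and 60.8, 81 and 80.6 in THC_Ctrl, against 112, 117 and 118 in Veh_LPS and 55.6, 70.1 and 75 in Veh_Ctrl, an interaction of -0.81 ± 0.27. H2-Q6, a nonclassical heavy chain, had 3.21, 1.49 and 1.27 CPM in THC_LPS and 1.13, 1.07 and 2.73 in THC_Ctrl, against 7.81, 8.07 and 8.6 in Veh_LPS and 1.41, 1.45 and 2.78 in Veh_Ctrl, an interaction of -1.88 ± 0.55. H2-Q4 had an interaction of -1.15 ± 0.32, with 4.5 to 6.23 CPM in THC_LPS and 2.96 to 4.35 in THC_Ctrl, against 7.97 to 11.3 in Veh_LPS and 2.32 to 3.65 in Veh_Ctrl. For these genes too Veh_LPS was the highest group in every library, and for H2-D1 and H2-Q6 THC_LPS overlapped THC_Ctrl. The H2-Q genes are near-identical copies, and how the authors' counting treated reads shared between them is not given in the sources used here, so the split between H2-Q4 and H2-Q6 is uncertain. Without Veh_LPS replicate 2 and THC_LPS replicate 3 the interaction was -0.62 for H2-K1, -0.59 for H2-D1, -1.05 for H2-Q4 and -1.64 for H2-Q6.

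Among the 11 immunoproteasome and peptide-loading genes, 10 had a negative interaction, with a median of -0.54 that was -0.22 with GC and length trends removed and -0.30 without THC_LPS replicate 3. Psmb8, a catalytic subunit of the immunoproteasome, had the smallest unadjusted p of the class. It was at 1.6, 1.14 and 0.684 CPM in THC_LPS and 1.33, 1.6 and 1.23 CPM in THC_Ctrl, against 3.05, 2.46 and 3.58 CPM in Veh_LPS and 0.667, 0.787 and 1.08 CPM in Veh_Ctrl. Veh_LPS did not overlap any other group, and THC_LPS overlapped THC_Ctrl. The LPS effect on Psmb8 was -0.30 after THC (adjusted p = 0.634) and 1.85 after vehicle (adjusted p = 0.0106), an interaction of -2.14 ± 0.46 (unadjusted p = 0.000278), and -1.96 with GC and length trends removed. Nlrc5, the transactivator of class I genes, had an interaction of -1.18 ± 0.49, Tap2 of -0.70 ± 0.28 and Tapbp of -0.54 ± 0.21.

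MHC class II genes, which present peptides from outside the cell and in the brain are used mainly by border macrophages and activated microglia, gave another form. All 9 tested members had a negative interaction (median -0.85), 2 of them at an unadjusted p under 0.05. The edgeR test called 0 of the 9 in either LPS arm (0.11% of all tested genes after THC and 0.622% after vehicle). Their median LPS effect was -0.53 after THC and 0.41 after vehicle, and the median interaction was -0.60 without THC_LPS replicate 3, -0.55 without Veh_LPS replicate 2, -0.42 without both and -0.29 by voom. H2-Eb1 had 1.96, 2.14 and 1.12 CPM in THC_LPS and 3.84, 2.38 and 3.27 in THC_Ctrl, against 3.25, 3.26 and 1.8 in Veh_LPS and 1.73, 1.61 and 2.87 in Veh_Ctrl. Here THC_Ctrl was above THC_LPS in every library, and both vehicle groups overlapped. Cd74, the class II chaperone, reached 13.9 CPM in Veh_LPS replicate 2 against 4.82 to 6.46 in the other Veh_LPS libraries, and its interaction of -1.07 ± 0.45 ranged from -1.36 to -0.42 over the alternatives.

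Interferon-stimulated genes leaned the same way with more spread. Of 33 tested antiviral genes 20 had a negative interaction, 7 of them at an unadjusted p under 0.05, and 13 a positive one, 0 of them at that p; the median was -0.31, at -0.19 with length trends removed. It ran between -0.52 and -0.22 with 1 library left out, lowest without Veh_LPS replicate 1 and highest without Veh_LPS replicate 2, and was -0.38 without THC_LPS replicate 3 and -0.47 without THC_LPS replicate 1. Their median LPS effect was 1.10 after THC and 1.75 after vehicle, with 2 of the 33 called higher after THC (0.0988% of all tested genes) and 16 after vehicle (0.622%); as said of all genes, these counts do not rank the arms. The members did not move as a block: values ran from -1.76 for Mx1, a dynamin-like GTPase against viruses, to 1.64 for Oas3, a sensor that makes oligoadenylate on viral RNA. The list as a whole was at 1.45, 0.84 and 1.23 in THC_LPS and 0.03, -0.14 and -0.04 in THC_Ctrl, against 1.07, 1.63 and 1.81 in Veh_LPS, in mean log2 CPM relative to the Veh_Ctrl mean. THC_LPS and Veh_LPS overlapped at this level, and both were above every library without LPS.

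Irf7, the transcription factor that amplifies interferon production, rose in both arms. It had 16.9, 7.73 and 9.38 CPM in THC_LPS and 2.63, 3.04 and 2.35 in THC_Ctrl, against 17.5, 19.1 and 19.6 in Veh_LPS and 1.77, 2.65 and 1.91 in Veh_Ctrl. THC_LPS replicate 1 lay just under the Veh_LPS libraries, and the other THC_LPS libraries lay well under them and well above every saline library. The log2 effect was 2.08 after THC (adjusted p = 0.0051) and 3.15 after vehicle (adjusted p = 4.75e-05), an interaction of -1.07 ± 0.36 (unadjusted p = 0.00955), and of -0.94 without Veh_LPS replicate 2 and THC_LPS replicate 3.

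Rsad2, or viperin, which blocks viral replication, had 3.5, 3.01 and 3.52 CPM in THC_LPS and 1.42, 1.68 and 1.08 in THC_Ctrl, against 3.81, 4.55 and 6.12 in Veh_LPS and 0.903, 0.828 and 1.04 in Veh_Ctrl. THC_LPS lay under Veh_LPS and THC_Ctrl above Veh_Ctrl in every library, so both ends contribute to the interaction of -1.13 ± 0.37. Bst2, or tetherin, which holds budding virus on the cell, had 11.1, 4.5 and 4.99 CPM in THC_LPS and 3.15, 2.87 and 3.58 in THC_Ctrl, against 9.95, 12.6 and 15 in Veh_LPS and 2.35, 2.36 and 3.36 in Veh_Ctrl. Here THC_LPS replicate 1 reached the Veh_LPS range and the other 2 did not.

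Guanylate-binding proteins and immunity-related GTPases, which attack the vacuoles of intracellular microbes, had a negative interaction in 12 of 14 genes (median -0.41), with a median LPS effect of 0.81 after THC and 1.39 after vehicle and 1 called higher after THC (0.0988% of all tested genes) and 9 after vehicle (0.622%), counts that again do not rank the arms. Without Veh_LPS replicate 3 this median interaction was -0.27. The interferon-stimulated response element, searched on both strands as GAAA, any 2 bases and GAAA again, lay in the promoter window of 9 of the 9 members with a RefSeq promoter and of 12 of 23 antiviral genes, against 3.62% of tested genes. It is shown for 3 members with an unadjusted p under 0.05, with the match in capitals.
Igtp: tctaggaactGAAACTGAAAgctgttcggg
Tgtp1: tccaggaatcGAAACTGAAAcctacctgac
Bst2: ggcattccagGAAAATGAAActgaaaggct
These stretches lie at chr11:58199512-58199541 on the plus strand, chr11:48992304-48992333 on the minus strand and chr8:71537583-71537612 on the minus strand (GRCm38.p6). Over the 438 tested genes with a match the median interaction was 0.02, close to the -0.00 of all genes with a promoter. Igtp had 6.11, 3.01 and 4.59 CPM in THC_LPS and 3.48, 3.16 and 5 in THC_Ctrl, against 6.58, 7.5 and 8.92 in Veh_LPS and 3.3, 3.15 and 3.07 in Veh_Ctrl, an interaction of -1.05 ± 0.35. Tgtp1, with an LPS effect of 0.67 after THC and 2.67 after vehicle, rests on few reads (71 summed over THC_LPS and 56 over THC_Ctrl, 230 over Veh_LPS and 26 over Veh_Ctrl), and it has a near-identical neighbour copy.

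Not every LPS-responsive gene leaned this way. Gbp7, of the same GTPase family, had 4.51, 4.37 and 4.99 CPM in THC_LPS and 1.62, 1.11 and 1.5 in THC_Ctrl, against 3.65, 5.23 and 5.28 in Veh_LPS and 1.49, 1.37 and 1.37 in Veh_Ctrl. Its log2 effects were 1.71 after THC (adjusted p = 0.0107) and 1.74 after vehicle (adjusted p = 0.00175), an interaction of -0.03 ± 0.33 that changed sign under some alternatives. Lcn2, the siderophore-binding acute-phase protein, rose in both arms, with 10.6, 4.98 and 17.7 CPM in THC_LPS against 0 to 0.192 in THC_Ctrl, and 8.13, 28.2 and 23.2 in Veh_LPS against 0.0393 to 0.29 in Veh_Ctrl. Its interaction of -0.25 ± 1.58 has too wide an error to place.

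Lysozyme (Lyz2) had an interaction of 0.04 ± 0.24, the protease-activating cathepsin Ctsc of -0.17 ± 0.26 and the vascular protein Igfbp7 of -0.22 ± 0.24, while each of the 3 rose with LPS in both arms; the signs for Lyz2 and Igfbp7 turned under some alternatives. Siglec1, the sialic-acid receptor of macrophages, also rose in both arms, by 2.22 after THC and 2.94 after vehicle, with an interaction of -0.72 ± 0.48.

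**Figure D2:**
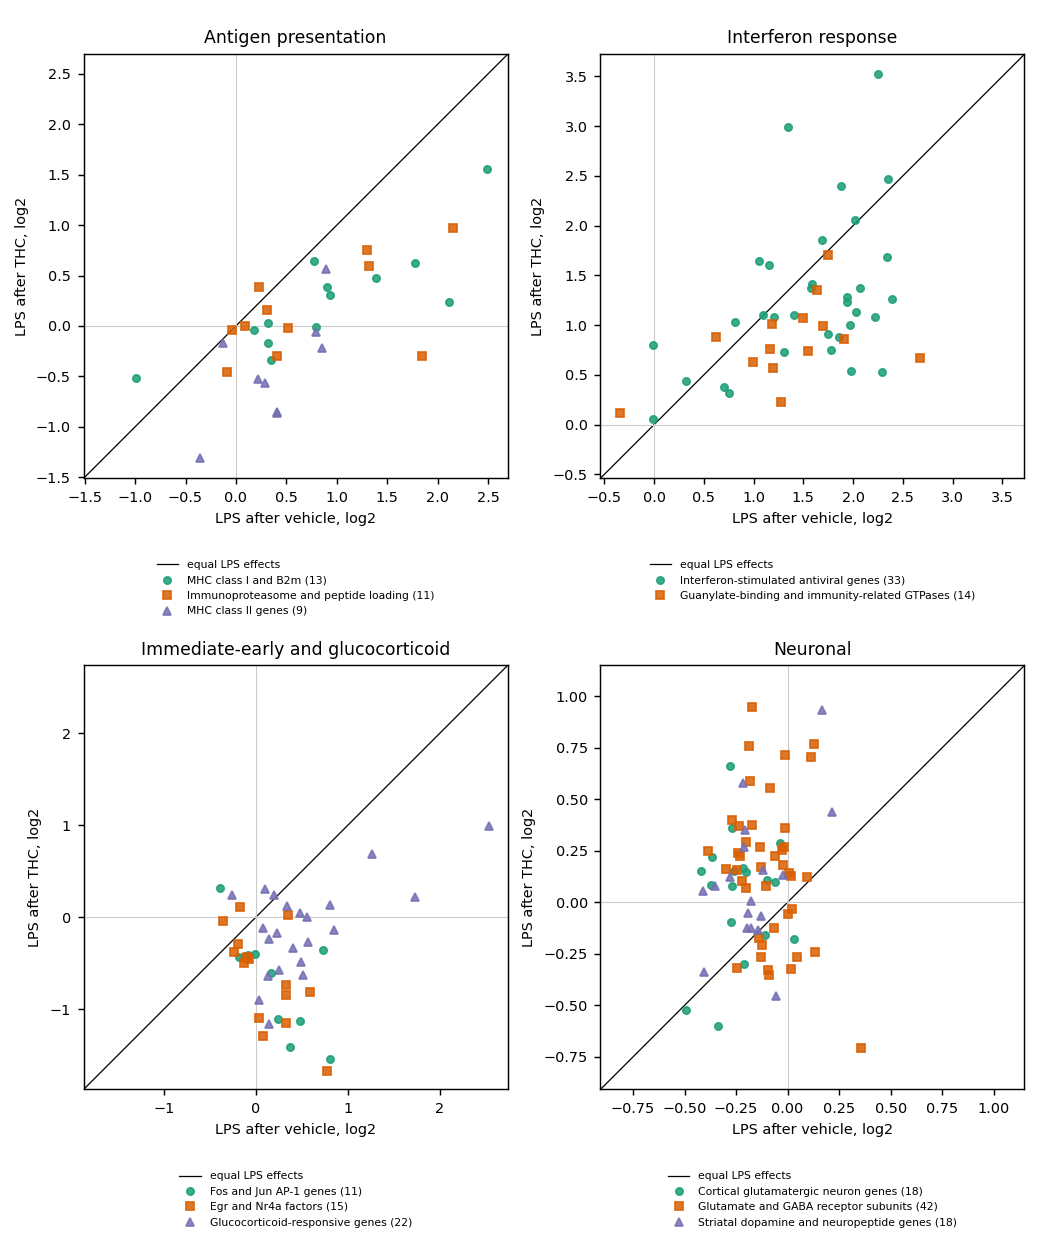
Log2 LPS effect after THC (y axis) against that after vehicle (x axis) for each tested member of 11 gene lists in 4 panels; a point under the diagonal has a negative interaction. The 2 effects share no library. Most class I genes lie to the right of 0 and under the line, most AP-1 and Egr genes lie low on the y axis with small x values, and cortical and receptor genes lie mostly above the line.

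Complement leaned to negative values in 13 of 20 genes (median -0.32, or -0.12 without THC_Ctrl replicate 3). C3, the convergence point of the cascade, had 3.5, 1.62 and 0.782 CPM in THC_LPS and 1.78, 1.31 and 0.693 in THC_Ctrl, against 2.42, 8.64 and 6.1 in Veh_LPS and 0.471, 0.538 and 1.37 in Veh_Ctrl, an interaction of -2.24 ± 0.79. C4b, made mainly by astrocytes, had 63.3, 48.6 and 29 CPM in THC_LPS and 32.1, 30.5 and 35.2 in THC_Ctrl, against 58.8, 80.5 and 75.4 in Veh_LPS and 22.2, 24.3 and 29.5 in Veh_Ctrl, an interaction of -0.97 ± 0.30 that was -0.72 without THC_LPS replicate 3. In both genes THC_LPS replicate 1 reached into the Veh_LPS range. Of 28 LPS receptor and NF-kB feedback genes 21 were below 0 and 7 above, with a median of -0.18. That median was -0.03 with GC and length trends removed and -0.08 without THC_LPS replicate 3. Values in the list ran from -1.17, for Lbp, to 1.99. Lbp, which hands LPS to its receptor complex, had an interaction of -1.17 ± 0.35 with an LPS effect of -0.22 after THC and 0.95 after vehicle, and Nfkb2, an NF-kB subunit, of -0.92 ± 0.36; neither effect on either gene passed the test.

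Homeostatic microglia genes did not lean, while lists of activated microglia and Fc receptor genes had negative medians. Of 23 disease-associated and activated microglia genes 16 were below 0 (median -0.26, or -0.05 with GC and length trends removed). Of 10 Fc receptor and ITAM adaptor genes 7 were below 0 (median -0.38, or -0.20). Both medians kept their sign in 23 of 23 alternatives. Of 22 homeostatic microglia genes 12 had a negative and 10 a positive value, with a median of -0.05 whose sign held in 14 of 23 alternatives. P2ry12, the purinergic receptor of resting microglia, had an interaction of 0.51 ± 0.32, Tmem119 of -0.42 ± 0.24, the fractalkine receptor Cx3cr1 of 0.27 ± 0.19 and Aif1, which encodes Iba1, of -0.04 ± 0.44. P2ry12 was at 16.3, 18.2 and 31.1 CPM in THC_LPS and 19.3 to 25.7 in THC_Ctrl, against 12.3 to 20.7 in Veh_LPS and 20.9 to 23.4 in Veh_Ctrl; its value was 0.17 without THC_LPS replicate 3. Border macrophage markers had a median of -0.49 with 7 of 12 below 0, blood monocyte and neutrophil markers one of 0.13 with 6 of 12 below 0, and T, B and NK cell markers one of 0.19 with 3 of 6 below 0. The border macrophage median was -0.31 without THC_Ctrl replicate 3 and -0.11 with a filter of 1 CPM in 3 libraries. With 1 library left out the monocyte and neutrophil median ran between -0.18 and 0.19 and the T, B and NK median between -0.04 and 0.42, so neither kept its sign. The level of the monocyte and neutrophil list was 0.87 to 1.42 in THC_LPS and -0.36 to 0.21 in THC_Ctrl, against 1.08 to 1.42 in Veh_LPS and -0.11 to 0.22 in Veh_Ctrl, so both LPS groups overlapped. In bulk tissue, fewer cells of a type and less RNA per cell cannot be told apart.

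Classical cytokine transcripts were close to the detection limit. Il1b had 22 reads summed over THC_LPS and 10 over THC_Ctrl, against 50 over Veh_LPS and 12 over Veh_Ctrl, an interaction of -0.13 ± 1.28. Tnf had 4 and 0 reads after THC, with and without LPS, and 14 and 0 after vehicle; Ccl2 had 21 and 7 after THC and 62 and 0 after vehicle; Il6 had 3 and 0 after THC and 1 and 0 after vehicle. Tnf, Ccl2 and Il6 did not pass the filter on low counts, so the main fit gave no interaction for them. The read sums are not scaled for depth, which was 16.7 to 22.4 M reads in THC_LPS libraries and 25.5 to 44.7 M in Veh_LPS. The list of chemokine and interleukin-1 genes had a median of 0.15 with 8 of 20 below 0, and its sign held in 14 of 23 alternatives.

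Immediate-early genes also had negative values, in another form: THC_Ctrl was the high group. Cyr61, a secreted matricellular protein induced by growth factors and by the YAP and SRF pathways, had 5.17, 5.02 and 5.52 CPM in THC_LPS and 16.1, 21.3 and 22.2 in THC_Ctrl, against 3.05, 8.45 and 10 in Veh_LPS and 3.85, 5.76 and 5.86 in Veh_Ctrl. Each THC_Ctrl library was above every other library, and the other 3 groups overlapped. The LPS effect was -1.92 after THC (adjusted p = 0.0248) and 0.49 after vehicle (adjusted p = 0.767). Its interaction of -2.42 ± 0.44 had the smallest unadjusted p of all genes, 4.8e-05 (edgeR adjusted p = 0.71, DESeq2 adjusted p = 0.000796), and ran from -2.77 to -2.08 over the alternatives. The other 10 tested genes of the matricellular and YAP-target list had no common direction: 5 of all 11 were below 0, with a median of 0.02.

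Of the 11 tested Fos and Jun family genes, which encode the AP-1 transcription factor and its partners, 10 had a negative interaction, 5 of them at an unadjusted p under 0.05 (median -0.76). Of 15 Egr, Nr4a, Klf and Ier factors 13 had one, 6 of them at that p (median -0.37, or -0.58 to -0.73 without THC_Ctrl replicate 1, Veh_LPS replicate 1 or THC_LPS replicates 1 or 2). In 6 of the 11 and in 9 of the 15, each THC_Ctrl library was above each Veh_Ctrl library, which was so for 5.96% of all tested genes. None of these genes passed the edgeR test in either LPS arm (0.11% of all tested genes did after THC and 0.622% after vehicle). Cerebellar neuron genes had the same shape in 10 of 18, and the part of tissue content in the early genes' values was not tested.

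Egr1, a zinc finger factor of the early response, had 199, 181 and 171 CPM in THC_LPS and 246, 352 and 318 in THC_Ctrl, against 170, 168 and 224 in Veh_LPS and 132, 137 and 177 in Veh_Ctrl, an interaction of -1.06 ± 0.23. Egr2, its relative, had 3.92, 4.28 and 5.91 CPM in THC_LPS and 9.83, 17.2 and 18 in THC_Ctrl, against 2.85, 3.07 and 9.27 in Veh_LPS and 1.81, 2.4 and 4.94 in Veh_Ctrl, an interaction of -2.44 ± 0.60. Fosb, whose stable splice form builds up with repeated stimulation, had 14, 15.4 and 10.8 CPM in THC_LPS and 20.6, 36 and 31.1 in THC_Ctrl, against 9.32, 13.8 and 18.5 in Veh_LPS and 8.24, 9.03 and 12.7 in Veh_Ctrl, an interaction of -1.61 ± 0.36. In all 3 genes the THC_Ctrl libraries lay above every library of the other groups.

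Fos had an interaction of -1.77 ± 0.64, with 24.3 to 36.5 CPM in THC_LPS and 62.5 to 95.3 in THC_Ctrl, against 12.6 to 43.8 in Veh_LPS and 8.28 to 32.2 in Veh_Ctrl; Veh_LPS and Veh_Ctrl overlapped widely. Values were -2.35 ± 0.55 for the stress factor Atf3, -1.48 ± 0.40 for the orphan nuclear receptor Nr4a1, -1.35 ± 0.47 for Junb and -1.40 ± 0.41 for Klf2, a factor of quiescent endothelium. Arc, which moves to active synapses, had -1.33 ± 0.47, but the 15 synaptic effectors of activity as a list went the other way (median 0.28, 4 below 0, and 0.12 with GC and length trends removed). Among them Homer1, a scaffold of glutamate receptors, had 0.73 ± 0.27. Within THC_Ctrl, replicate 1 was the lowest of the 3 libraries for Egr1, Egr2, Fos, Fosb, Junb, Atf3, Nr4a1, Arc and Cyr61, and in the AP-1 list it was at 0.32 against 0.77 and 0.89. Without THC_Ctrl replicate 3 the median of the AP-1 list was -0.48.

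Glucocorticoid-responsive genes mixed both forms. Of 22 tested genes 19 had a negative interaction and 11 of them an unadjusted p under 0.05 (median -0.71). Their median LPS effect was -0.13 after THC and 0.37 after vehicle. In 6 of the 22 each THC_LPS library was below each Veh_LPS library (6.12% of all tested genes). In 6 each THC_Ctrl library was above each Veh_Ctrl library (5.96%). Ddit4, an inhibitor of the growth regulator mTORC1, had 29.1, 28.3 and 24.9 CPM in THC_LPS and 42.6, 52 and 59.2 in THC_Ctrl, against 31.2, 43.3 and 38.6 in Veh_LPS and 32.3, 41.4 and 36.4 in Veh_Ctrl. It fell with LPS after THC by 0.90 (adjusted p = 0.0359) and had an effect of 0.04 after vehicle (adjusted p = 0.967), an interaction of -0.94 ± 0.22, which was -0.76 without Veh_LPS replicate 2 and THC_LPS replicate 3.

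Dusp1, a phosphatase that turns off MAP kinases, had an interaction of -1.30 ± 0.33, Nfkbia, the inhibitor of NF-kB, of -0.82 ± 0.21, Cdkn1a, the cell cycle inhibitor p21, of -0.98 ± 0.28 and the clock gene Per1 of -0.78 ± 0.29. Each had its highest mean in THC_Ctrl except Cdkn1a, whose highest mean was in Veh_LPS. Gnmt, a glycine methyltransferase, was among the 12 negative genes of smallest p at -1.69 ± 0.43, with 1.4 to 1.71 CPM in THC_LPS and 2.69 to 3.76 in THC_Ctrl, against 1.82 to 2.35 in Veh_LPS and 0.707 to 1.82 in Veh_Ctrl. The level of the glucocorticoid list in Veh_LPS was 0.06 in replicate 1 and 0.81 and 0.56 in the other 2, and without Veh_LPS replicate 2 its median interaction was -0.45.

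**Figure D3:**
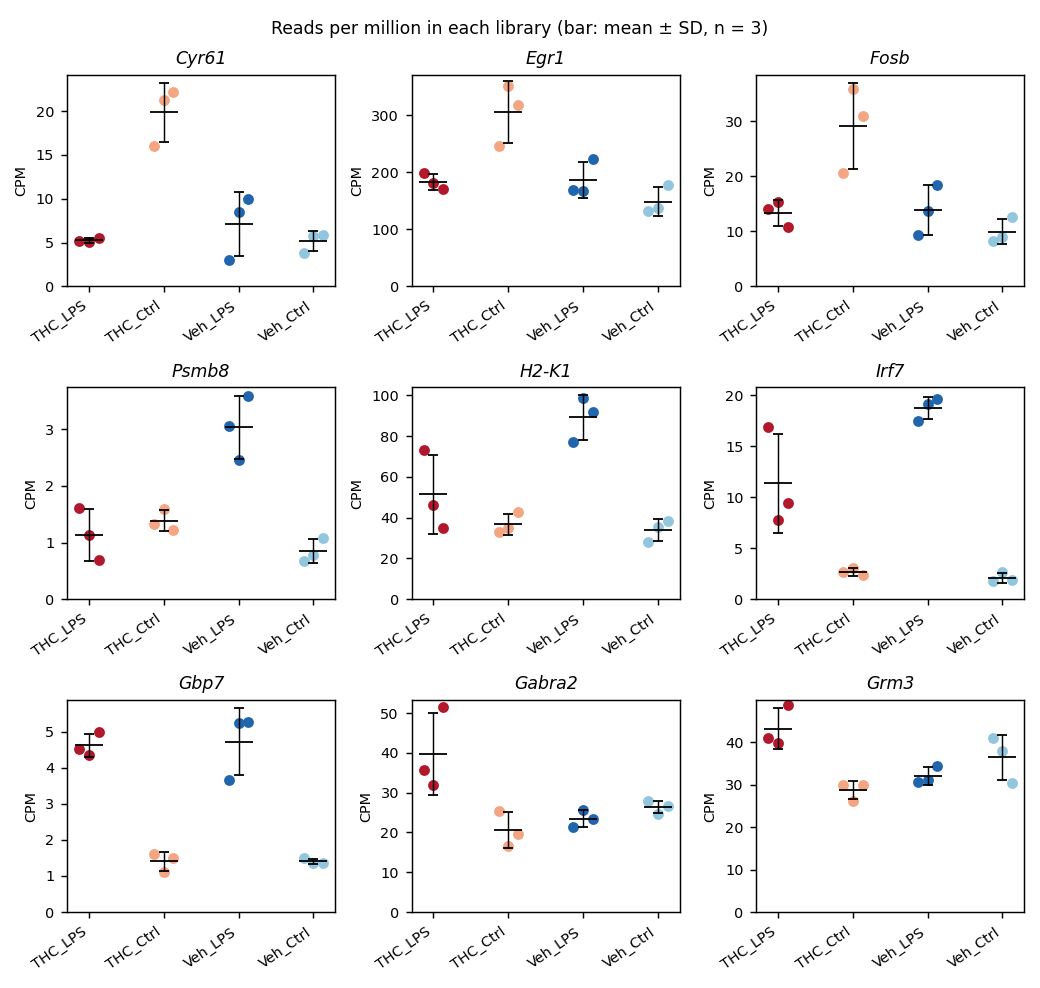
CPM (y axis, linear from 0) of 9 genes in each library of the 4 groups, with mean and SD (n = 3). Cyr61, Egr1 and Fosb are highest in THC_Ctrl, Psmb8, H2-K1 and Irf7 in Veh_LPS, Gbp7 overlaps between both LPS groups, and Gabra2 and Grm3 are highest in THC_LPS.

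**Figure D4:**
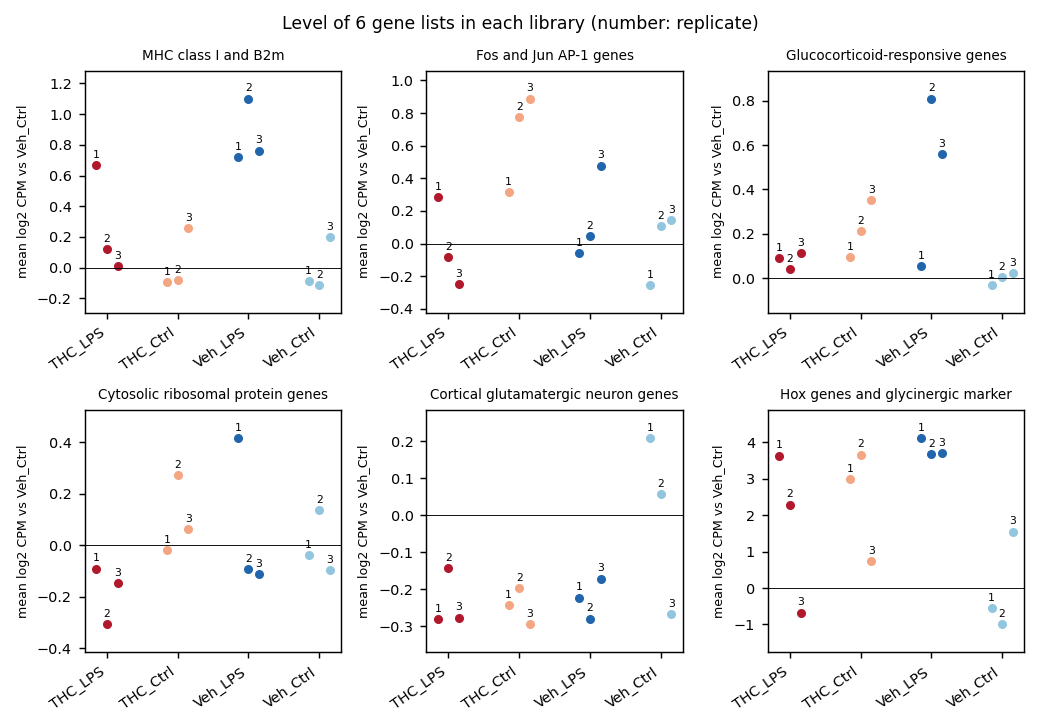
Mean log2 CPM of 6 gene lists in each library, relative to the Veh_Ctrl mean (y axis), with the replicate number beside each point. For class I genes THC_LPS replicate 1 is at 0.67 and replicates 2 and 3 at 0.12 and 0.01, against 0.72 to 1.10 in Veh_LPS; the AP-1 list is highest in THC_Ctrl replicates 2 and 3.

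Some groups of neuronal genes leaned to positive values and others did not. Sodium and calcium channel genes were below 0 in 19 of 36 (median -0.02), synaptic vesicle and release genes in 10 of 22 (median 0.01) and potassium channel genes in 37 of 81 (median 0.07). Of 42 glutamate and GABA receptor subunits 29 were above 0, 11 of them at an unadjusted p under 0.05, with a median of 0.29 (0.15 with GC and length trends removed and 0.19 without THC_LPS replicate 3). Their median LPS effect was 0.16 after THC and -0.10 after vehicle. The edgeR test called 0 of the 42 in either arm (0.11% of all tested genes after THC and 0.622% after vehicle). In 8 of the 42 each THC_LPS library was above each Veh_LPS library, which was so for 5.61% of all tested genes. Gabra2, an alpha subunit of the GABA-A receptor, had 35.8, 32 and 51.5 CPM in THC_LPS and 25.5, 16.6 and 19.7 in THC_Ctrl, against 21.3, 25.7 and 23.4 in Veh_LPS and 27.8, 24.7 and 26.7 in Veh_Ctrl. THC_LPS lay above every other library, most of all its replicate 3. The interaction of 1.12 ± 0.26 had the smallest unadjusted p of the positive genes, 0.000479, and was 0.77 with GC and length trends removed and 0.89 without THC_LPS replicate 3.

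Grm3, a metabotropic glutamate receptor, had 41, 39.8 and 48.8 CPM in THC_LPS and 30, 26.2 and 30 in THC_Ctrl, against 30.6, 31.2 and 34.5 in Veh_LPS and 40.9, 37.9 and 30.5 in Veh_Ctrl, an interaction of 0.77 ± 0.19. THC_LPS lay above THC_Ctrl and above Veh_LPS in every library but overlapped Veh_Ctrl. Grm5, a receptor of the other metabotropic class, had 0.94 ± 0.30 and Gabrb1, a beta subunit, 0.59 ± 0.21. Among the other positive genes of smallest p were the signalling genes Rgs5 (0.88 ± 0.22) and Dgkb (1.00 ± 0.27), the axon guidance factor Sema3c (0.84 ± 0.21), the noncoding RNA Dlx6os1 (0.90 ± 0.23), the growth factor Bmp3 (1.16 ± 0.30) and the retinal guanylate cyclase Gucy2f (2.27 ± 0.59), together with 3 predicted genes. The chemokine Ccl28 had the highest value among them, 3.93 ± 0.97, with 3.15, 1.31 and 4.79 CPM in THC_LPS and 0.205 to 0.485 in THC_Ctrl, against 0.933 to 1.18 in Veh_LPS and 3.96, 0.331 and 0.872 in Veh_Ctrl, where a single library was high.

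Lists of region markers did not share a direction. Cortical glutamatergic genes had a median of 0.33 with 13 of 18 above 0, striatal dopamine and neuropeptide genes one of 0.20 with 17 of 18 above 0, and thalamic and hypothalamic genes one of 0.35 with 12 of 18 above 0. The thalamic median was 0.09 without THC_LPS replicate 3, 0.13 without Veh_Ctrl replicate 3 or without Veh_LPS replicate 3, 0.15 without THC_LPS replicate 1 and 0.23 without THC_Ctrl replicate 2. The striatal one was 0.13 without THC_LPS replicate 2 and 0.33 without Veh_LPS replicate 1. In 5 of the 18 striatal genes each THC_Ctrl library was below each Veh_Ctrl library, which was so for 6.85% of all tested genes. Cerebellar genes had one of -0.08 with 13 of 18 below 0. In 10 of the 18 cerebellar genes each THC_Ctrl library was above each Veh_Ctrl library (5.96% of all tested genes), as in the AP-1 and Egr lists. The cerebellar list was at 0.06 to 0.24 in THC_LPS and 0.26 to 0.36 in THC_Ctrl, against -0.06 to 0.12 in Veh_LPS and -0.23 to 0.17 in Veh_Ctrl, so THC_Ctrl was its highest group in every library. The cortical list was at -0.28, -0.14 and -0.28 in THC_LPS and -0.24, -0.20 and -0.29 in THC_Ctrl, against -0.22, -0.28 and -0.17 in Veh_LPS and 0.21, 0.06 and -0.27 in Veh_Ctrl. Only Veh_Ctrl replicates 1 and 2 were above the others, and without Veh_Ctrl replicate 1 the median interaction of the list was 0.19. Foxp1, a factor of striatal and deep cortical neurons, had 0.79 ± 0.23, the cortical projection neuron factor Bcl11b 0.63 ± 0.19, the cortical bHLH factor Neurod6 0.58 ± 0.25 and the striatal phosphodiesterase Pde10a 0.48 ± 0.21. Dlx and GABAergic interneuron genes were above 0 in 16 of 20, with a median of 0.10. That median was 0.34 with GC and length trends removed and ran from 0.02 to 0.34 over the alternatives. Pvalb, of fast-spiking interneurons, had the lowest value of that list, -0.59 ± 0.20. The part of regional content of the tissue pieces in the interaction was not tested.

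Hox genes, which mark hindbrain and spinal cord, differed widely between libraries. Of 25 listed genes 14 passed the filter on low counts, 1 of them a marker of glycinergic neurons, and their summed level was 82, 41.5 and 11.2 CPM in THC_LPS and 67.2, 82.7 and 20 in THC_Ctrl, against 84.9, 78.1 and 80.2 in Veh_LPS and 12.3, 11.2 and 54.4 in Veh_Ctrl. All 14 had a negative interaction, 8 at an unadjusted p under 0.05. Hoxa5 had 3.62, 1.31 and 0 CPM in THC_LPS and 2.79, 2.79 and 0.269 in THC_Ctrl, against 3.85, 3.49 and 4.23 in Veh_LPS and 0, 0 and 0.083 in Veh_Ctrl; with 2 reads in all of Veh_Ctrl no fold is given. Within every group except Veh_LPS at least 1 library differed strongly from the others, so the Hox values vary by library rather than by group alone. Choroid plexus genes, which line the ventricles and make cerebrospinal fluid, were below 0 in 14 of 16 (median -0.50, or -0.32 without THC_LPS replicate 3 or without Veh_Ctrl replicate 1, and -0.81 without THC_LPS replicate 1), with Otx2 at -0.93 ± 0.28 and Folr1 at -0.96 ± 0.35. The list ran from -0.09 to 0.36 in THC_LPS and 0.14 to 0.55 in THC_Ctrl, against 0.18 to 0.60 in Veh_LPS and -0.31 to 0.33 in Veh_Ctrl.

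Endocannabinoid genes leaned to positive values in 13 of 19, with a median of 0.15. That median was 0.26 to 0.28 without Veh_Ctrl replicate 3, THC_Ctrl replicate 2, Veh_LPS replicate 3 or THC_LPS replicate 2. It was 0.13 without THC_LPS replicate 3 and 0.10 without that library and Veh_LPS replicate 2. Of the 13 positive genes 1 had an unadjusted p under 0.05. That gene was Plcb1, a phospholipase C that supplies precursor for the endocannabinoid 2-AG, at 0.68 ± 0.24. Cnr1 had 159, 220 and 288 CPM in THC_LPS and 199, 178 and 207 in THC_Ctrl, against 174, 175 and 204 in Veh_LPS and 246, 226 and 190 in Veh_Ctrl, so all 4 groups overlapped. Its interaction was 0.45 ± 0.25, and 0.22 without THC_LPS replicate 3. Cnr2 had only 10 reads summed over THC_LPS and 10 over THC_Ctrl, against 23 over Veh_LPS and 34 over Veh_Ctrl, an interaction of 1.26 ± 1.29.

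Housekeeping families showed small, broad leanings. Of 83 cytosolic ribosomal protein genes 75 were below 0, 19 of them at an unadjusted p under 0.05 (median -0.38), and of 82 nuclear-encoded subunits of oxidative phosphorylation 65 were below 0 (median -0.25). With GC and length trends removed these medians were -0.19 and -0.08, and without Veh_LPS replicate 1 they were -0.18 and -0.11. The ribosomal list was at -0.09, -0.31 and -0.15 in THC_LPS and -0.02, 0.27 and 0.06 in THC_Ctrl, against 0.42, -0.09 and -0.11 in Veh_LPS and -0.04, 0.14 and -0.10 in Veh_Ctrl, so Veh_LPS replicate 1 alone was high in its group. Rps28, a small-subunit protein, had -0.86 ± 0.29, Rpl37, of the large subunit, -0.70 ± 0.27, and Ndufb8, of complex I, -0.77 ± 0.28. In the other direction, of 342 Zfp zinc finger genes 222 were above 0, with a median of 0.17 that was 0.03 with GC and length trends removed, and of 35 protocadherins 26 were above 0, with a median of 0.28 that was 0.05.

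Gene GC content moved with the interaction across all genes. Spearman's rho between them was -0.507, and -0.148 without THC_LPS replicate 3; genes were not independent replicates. The tenth of the genes lowest in GC (median 41.2%) had a median interaction of 0.33 and the tenth highest in GC (median 59.9%) one of -0.26, against 0.08 and -0.04 without THC_LPS replicate 3. With each library's GC trend removed, rho was 0.0206. The medians of class I genes (-0.65), AP-1 genes (-0.69), glucocorticoid-responsive genes (-0.56) and cortical genes (0.35) were close to their main values with GC and length trends removed.

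**Figure D5:**
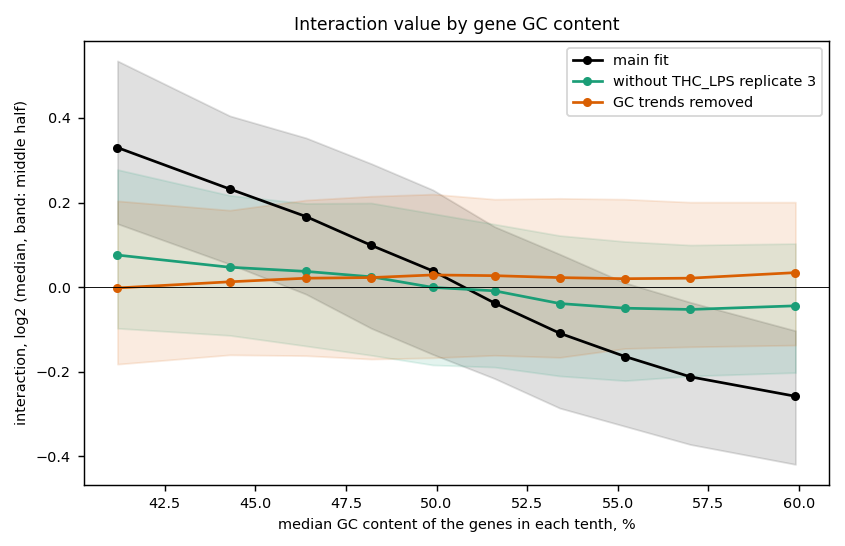
Median interaction (log2, y axis; band, lower to upper quartile of the genes) in 10 equal bins of the tested genes ordered by GC content (x axis, %), for all 12 libraries, for 11 libraries with THC_LPS replicate 3 left out, and after removal of GC trends. With all 12 the median runs from 0.33 to -0.26, and both alternatives stay within 0.1 of 0.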

How the data were processed

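Raw read counts per gene, deposited by the authors as 1 file per library per the file headers, were the input of every test. Tools listed in the submitters' processing notes are STAR 2.5, HTSeq and DESeq2, on build mm10. Strand, annotation and the treatment of multi-mapping reads are not stated there. Genes absent from a file were taken as 0 reads. The deposited normalized and FPKM columns, scaled apart for the vehicle and THC sets, and the deposited adjusted p-values were not used.

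All 12 libraries entered 1 edgeR 4.0.16 fit (R 4.3.3; a mean per group, TMM scaling, default filter on low counts, robust quasi-likelihood, Benjamini-Hochberg adjustment over all 17208 tested genes). The interaction and both LPS effects are contrasts of that fit. Levels are CPM after TMM scaling. The SE is the log2 value over the square root of F, an approximation. Lists are described by counts and medians; list levels are mean log2 CPM with a prior count of 1. Of 2054 list entries 2050 matched the files, 9 through another name, and 1904 were tested. The members and lists were chosen with earlier results of these data known. Named genes are the 12 of smallest p on each side and 8 for the averaged LPS effect at a mean of at least 1 CPM, up to 4 of smallest p per list, and a set of microglial, cytokine, cannabinoid and early genes; Btg2 and Oas3 were named after their values were seen. Alternatives were DESeq2 1.42.0, limma-voom 3.58.1, other scaling and filters, removal of loess GC and length trends (span 0.5), a replicate block and libraries left out. The procedure was tested on simulated counts.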

Additional observations from a re-analysis of the deposited data

Results flagged for a closer look

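Cyr61 was the only gene that DESeq2 called for a difference in LPS effect between THC and vehicle mice. DESeq2 gave it an interaction of -2.42 at an adjusted p of 0.000796. The main edgeR fit gave it an adjusted p of 0.71 and did not call it. All 3 THC_Ctrl libraries, at 16.1 to 22.2 CPM, were above the other 9, at 3.05 to 10 CPM. No group has more than 3 libraries, so no outlier test within a group was run.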

How the results depend on the processing

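The count of genes with an interaction at an adjusted p under 0.05 was 0 in the edgeR analysis, 1 with DESeq2 (Cyr61) and 3 with a replicate block and GC and length trends removed (Cyr61, Egr2 and Btg2). Leaving out 1 library gave 0 to 1, the 1 being Cyr61 without Veh_LPS replicate 1 (adjusted p = 0.0015). The replicate block alone gave 0, with a smallest adjusted p of 0.14 by edgeR. With group means removed, same-numbered libraries of different groups correlated at -0.146 to 0.09 and differently numbered ones at -0.144 to 0.168. Whether the numbers stand for a batch or a pairing was not tested. The call counts for LPS after THC moved more than those for the interaction. They were 19 in the main analysis, 486 with DESeq2, 149 with no low-count filter, 12 with a filter of 1 CPM in 3 libraries, 77 with GC trends removed and 160 with GC and length trends removed. Leaving out single libraries gave 0 to 160: 0, 2 and 1 without THC_Ctrl replicates 1, 2 and 3, 160 and 29 without THC_LPS replicates 1 and 2, 57, 8 and 7 without Veh_LPS replicates 1, 2 and 3, and 11 without Veh_Ctrl replicate 3. For LPS after vehicle the count was 107, with 216 by DESeq2 and 179 with GC and length trends removed, and 33 to 197 over single libraries left out: 197 without THC_LPS replicate 3, 49 and 43 without Veh_LPS replicates 2 and 3, and 33 and 39 without Veh_Ctrl replicates 1 and 2. The causes were not tested. With the block these counts were 19 and 86, and voom with sample weights gave 975 after THC and 1895 after vehicle.

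Of 84 genes carried through the alternatives, 78 kept their direction in each. Gbp7 ran from -0.183 to 0.076, Lcn2 from -0.92 to 0.50, Lyz2 from -0.088 to 0.147, Aif1 from -0.37 to 0.24 and Il1b from -0.68 to 0.93 with 1 library left out. With GC trends removed the values were -0.029 for Lyz2, 0.10 for Igfbp7 and 0.026 for Aif1, with length trends removed 0.10 for Aif1 and 0.014 for Il1b, and with both removed 0.16 for Igfbp7 and 0.10 for Aif1. With the block added to both they were 0.015 for Lcn2, 0.14 for Igfbp7 and 0.11 for Aif1, and voom gave -0.079 for Lyz2. Of 66 list medians, 10 changed sign with GC and length trends removed. The low read counts of Il1b and Cnr2 and the 3 libraries per group limit the precision.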
